A study of Homo sapiens with 9 samples.

Results

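The transcripts of 37 imprinted genes were followed in PC-3 cells, an androgen-independent line grown from a bone metastasis of a prostate carcinoma. The genes were chosen by symbol, as genes known to be imprinted in humans or to lie in an imprinted cluster. Their values were not the rule of choice, but earlier results of these data were known when the list was made. All 37 were found among the 60617 Ensembl gene identifiers of the count files. The series holds 9 RNA-seq libraries of this 1 line in 3 groups of 3. The control cells received the vehicle only. The decitabine group received 1 µM decitabine, a cytidine analogue that is built into DNA and traps DNA methyltransferases. The combination group received 1 µM decitabine with 200 µM S-adenosylmethionine (SAM), the methyl donor of the cell. RNA was collected after 5 days in all groups, and the comparisons ask how decitabine changed expression and whether SAM altered that change.

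An imprinted gene is expressed mainly from the allele inherited from a particular parent. The choice is kept by DNA methylation laid down in the germ line at imprinting control regions, which the maintenance methyltransferase DNMT1 and its partner UHRF1 copy at each division. Many imprinted genes lie in clusters that share a control region and hold a long non-coding RNA. In tumours these marks are often gained or lost, so that a gene can be silent on both alleles or active on both. Total RNA counts do not tell the parental alleles apart, and DNA methylation was not analysed here.

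The deposited values were estimated counts per gene, which summed to between 21934307 and 22489684 in the 9 libraries. Levels are given as CPM, the counts of a gene scaled to a fixed library total, after TMM scaling of the libraries by composition, as mean ± SD of the 3 libraries of a group. These CPM are not divided by gene length, so levels are compared between groups and not between genes. Differences are log2 fold changes with standard errors (SE) from edgeR's quasi-likelihood test over the 18532 genes that passed its expression filter. A gene was called at a Benjamini-Hochberg adjusted p under 0.05 over all of those genes. Nothing in the labels says that the 3 libraries of a group came from separate cultures, so the p-values measure the spread between these libraries. No 2 libraries of a group agreed within sampling noise.

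The epithelial keratin gene KRT18 was abundant in the controls, at 426 ± 26.2 CPM, and the prostate-specific antigen gene KLK3 had no counts in any library. Markers of other cell types moved with treatment. The 3 fibroblast genes DCN, LUM and PDGFRA summed to 1.39 to 1.85 CPM in controls, 12.2 to 14 CPM with decitabine and 13.7 to 17.5 CPM with the combination, and all 3 were called higher. The leukocyte gene PTPRC went from 0.0828 ± 0.0287 CPM in controls to 1.06 ± 0.192 CPM with decitabine and 0.736 ± 0.219 CPM with the combination, and CD3E, which marks T cells, had no counts in the controls. The endothelial genes PECAM1 and CDH5 together went from 9.83 to 10.5 CPM in controls to 30.1 to 41.2 CPM. The part of such a broad change in the values of the imprinted genes was not tested.

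Promoter windows of RefSeq on GRCh38.p14, from 250 bases before to 50 bases after a transcript start, matched 23 of the 37 genes. For CDKN1C, DLK1, DLX5, IGF2, KCNQ1, KCNQ1OT1, MEG8, NNAT, PEG10, PEG3, PHLDA2, SGCE, SLC22A18 and ZIM2 no window was used. The 250 bases before the start are shown for the 5 genes with a window that had the largest increases with decitabine among those that passed the expression filter, and for SNRPN, which was already expressed and was lower. Each is written 5′ to 3′ on the strand of the gene, with CpG dinucleotides, the sites that DNA methyltransferases modify, in capitals. The MEG3 stretch is chr14:100825858-100826107 on the plus strand, that of H19 is chr11:2001267-2001516 on the minus strand, and that of NDN is chr15:23687306-23687555 on the minus strand. Those of DIRAS3, FAM50B and SNRPN are chr1:68050628-68050877 on the minus strand, chr6:3849123-3849372 on the plus strand and chr15:24954737-24954986 on the plus strand.
MEG3: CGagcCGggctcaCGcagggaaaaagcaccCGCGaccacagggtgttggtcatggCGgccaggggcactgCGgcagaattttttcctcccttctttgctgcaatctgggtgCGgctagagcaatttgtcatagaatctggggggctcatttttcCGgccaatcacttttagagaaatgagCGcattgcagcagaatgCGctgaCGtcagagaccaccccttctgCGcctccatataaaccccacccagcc
H19: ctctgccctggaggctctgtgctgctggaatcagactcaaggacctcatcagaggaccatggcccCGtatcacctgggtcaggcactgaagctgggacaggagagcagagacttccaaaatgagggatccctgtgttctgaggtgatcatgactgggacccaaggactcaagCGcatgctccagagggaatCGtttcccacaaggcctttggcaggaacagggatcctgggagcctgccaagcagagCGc
NDN: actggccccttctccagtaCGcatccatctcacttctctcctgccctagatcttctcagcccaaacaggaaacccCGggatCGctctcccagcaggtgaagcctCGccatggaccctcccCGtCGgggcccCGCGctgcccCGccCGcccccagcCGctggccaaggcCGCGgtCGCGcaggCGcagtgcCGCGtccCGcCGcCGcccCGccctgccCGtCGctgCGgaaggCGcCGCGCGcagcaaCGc
DIRAS3: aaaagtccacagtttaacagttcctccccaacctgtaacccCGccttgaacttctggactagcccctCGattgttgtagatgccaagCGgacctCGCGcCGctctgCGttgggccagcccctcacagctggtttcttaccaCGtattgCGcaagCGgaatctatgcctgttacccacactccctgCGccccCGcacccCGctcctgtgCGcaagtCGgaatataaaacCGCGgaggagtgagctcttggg
FAM50B: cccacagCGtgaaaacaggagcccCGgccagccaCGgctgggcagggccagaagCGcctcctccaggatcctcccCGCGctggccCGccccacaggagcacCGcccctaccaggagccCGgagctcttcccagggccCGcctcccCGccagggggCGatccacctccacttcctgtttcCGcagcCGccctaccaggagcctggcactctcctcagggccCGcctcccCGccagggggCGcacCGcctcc
SNRPN: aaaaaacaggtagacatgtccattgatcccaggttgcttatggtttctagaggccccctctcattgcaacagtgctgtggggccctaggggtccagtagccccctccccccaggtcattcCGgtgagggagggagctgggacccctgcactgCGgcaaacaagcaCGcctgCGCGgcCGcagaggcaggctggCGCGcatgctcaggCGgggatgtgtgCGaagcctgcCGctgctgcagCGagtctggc
The number of CpG sites in these 250 bases was 4 for H19, 12 for SNRPN, 13 for MEG3, 17 for DIRAS3, 18 for FAM50B and 30 for NDN. The stretches shown for genes that were higher after treatment were thus sparse as well as dense. Other windows held 11 and 13 sites before the start for MEG3, and 6, 6 and 1 for SNRPN. The H19 stretch lies inside the annotated gene, which reaches to 2004552 on the minus strand. Over whole windows of 300 bases, the 49 distinct windows of imprinted genes held a median of 18 CpG sites, against 14 in the 34943 windows of all genes. The letters TGCCGC, the core bound by the imprint-guarding zinc finger protein ZFP57 when methylated, were searched on both strands, and overlapping matches were counted. They stood in 21 of the 49 windows (42.9%) and in 16.7% of all windows. Among windows of imprinted genes called higher by over 1 on the log2 scale with decitabine, 6 of 13 (46.2%) held them, as did 14 of 32 (43.8%) of the windows of the other tested imprinted genes. Several windows can belong to 1 gene, as for MEG3 and PLAGL1, and those of MEG3 overlap and share their match. The shares therefore count windows and not genes. A match describes the letters only.

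Of the 37 imprinted genes, 30 passed the filter and were tested. With decitabine 16 of the 30 were called higher than in controls, 5 were lower and 9 were not called. Among all 18532 genes tested, 68.8% were called in this comparison, 36.3% higher and 32.5% lower. The median difference of the 30 genes was 0.44 (log2), and that of all genes tested was 0.03. A difference of over 1 on the log2 scale was called for 12 genes upward and for 0 downward, where 22.7% of all genes were called upward and 6.15% downward by that rule. Of the 16 genes called higher, 8 passed the filter only through the treated libraries and so had to be higher: IGF2, RTL1, MEG3, MEG8, DLX5, NDN, NNAT and DIRAS3. Among the 22 genes that passed in the controls alone, 8 were higher and 5 lower, with a median of 0.09. The 14700 genes of the whole table that passed in the controls alone had 26.2% higher, 40.9% lower and a median of -0.13.

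In the combination against controls, 15 of the 30 genes were called higher, 6 lower and 9 were not called. Over all genes 67.2% were called, 35.9% higher and 31.3% lower. The median difference was 0.25 for the imprinted genes and 0.05 for all genes. Again 12 imprinted genes were called higher by over 1 and 0 lower, against 21.4% and 6.56% of all genes. The same 8 genes that passed the filter only through the treated libraries were called higher here too, and so had to be. Among the 22 genes that passed in the controls alone, 7 were higher and 6 lower, with a median of -0.03. The 14700 genes of the whole table that passed in that way had 26.5% higher, 39.3% lower and a median of -0.12. The combination and decitabine comparisons share their controls, so their values are given side by side and not as separate support. The 7 genes not tested were KCNQ1, DLK1, ZIM2, USP29, MAGEL2, HYMAI and NAP1L5, all of which had few counts in every group.

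**Figure D1:**
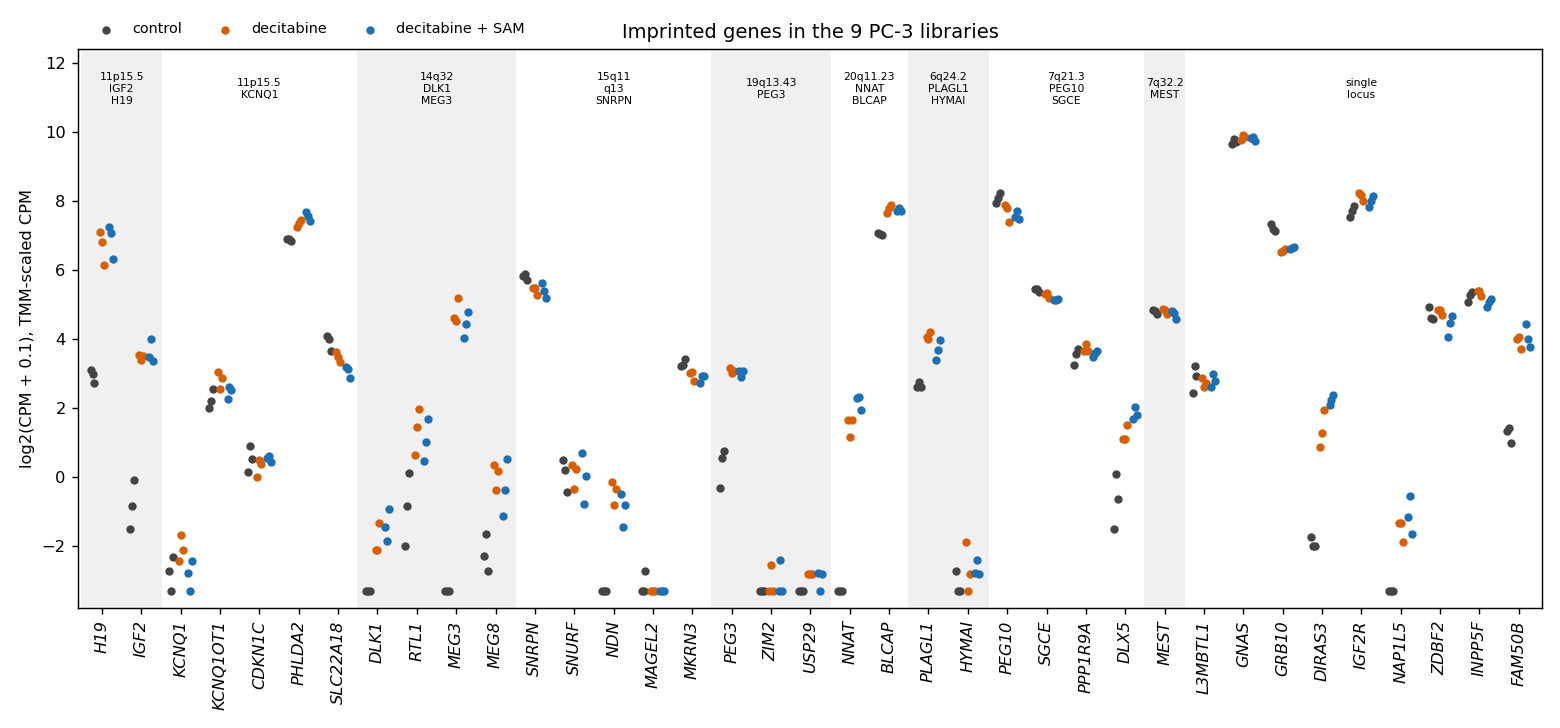
Level of each of the 37 imprinted genes in each of the 9 libraries, as log2 of the TMM-scaled CPM plus 0.1 on the vertical axis, with genes ordered by imprinted cluster on the horizontal axis and 1 point per library coloured by group. The lowest points of each gene at the floor of the plot are libraries with no counts, as for MEG3, NDN and NNAT in the 3 control libraries, while the points of GNAS and MEST overlap between all groups.

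Whether the 3 libraries of a group overlapped those of the control could be read for all 37 genes. Every decitabine library lay above every control library for 19 genes and below for 6, and the groups overlapped for 12. Over all genes tested, 38.1% did not overlap upward and 34.8% downward. For the combination 16 genes lay above, 6 below and 15 overlapped, against 38.0% and 33.6% of all genes.

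By the allele that is normally expressed, 9 of the 17 tested paternally expressed genes were called higher with decitabine and 3 lower, against 36.3% and 32.5% of all genes, and 5 of the 17 passed the filter only through the treated libraries. Of the 8 tested maternally expressed genes, 5 were higher and 1 was lower, and 2 of the 8 passed only through the treated libraries. The remaining 5 genes, whose expressed allele depends on the transcript or tissue, had 2 higher and 1 lower, with 1 that passed in that way. No difference between the classes was tested.

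The IGF2-H19 cluster on chromosome 11 rose as a pair. H19 (ENSG00000130600, chr11:1995166-2004552, GENCODE release 44 on GRCh38) is a maternally expressed long non-coding RNA, and IGF2 (ENSG00000167244, chr11:2129112-2158391) is the paternally expressed fetal growth factor that competes with it for shared enhancers. H19 stood at 8.49, 7.85 and 6.47 CPM in the controls, at 138, 113 and 70.3 CPM with decitabine and at 152, 134 and 80.0 CPM with the combination. The groups treated with decitabine did not overlap the controls, and replicate 3 was the lowest of each. H19 was 14.1-fold higher with decitabine (log2 fold change 3.82, SE 0.38, adjusted p = 8.8e-05) and 16.0-fold higher with the combination (4.0, SE 0.38, adjusted p = 7.3e-05). IGF2 had 5, 9 and 17 counts in the controls (0.513 ± 0.300 CPM), 273, 245.2 and 264.1 counts with decitabine (11 ± 0.615 CPM) and 253, 357 and 238 counts with the combination (12.3 ± 2.99 CPM). Its difference from the controls was 4.41 (SE 0.28, adjusted p = 1.7e-08) with decitabine and 4.57 (SE 0.28, adjusted p = 1.1e-08) with the combination. The transcripts that are normally made from opposite parental chromosomes were thus both higher in the same libraries.

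IGF2R, the maternally expressed receptor on chromosome 6 that clears the IGF2 protein, was already abundant. Its level was 186, 211 and 232 CPM in controls, 298, 290 and 256 CPM with decitabine and 225, 258 and 281 CPM with the combination. The decitabine libraries lay above the controls, while the combination libraries overlapped them. The difference was 0.42 with decitabine (SE 0.10, adjusted p = 0.0014) and 0.28 with the combination (SE 0.10, adjusted p = 0.021). The call of IGF2R in the combination was lost when control replicate 1 or 2 or combination replicate 2 or 3 was left out. GRB10, an adaptor protein that restrains insulin and growth factor receptor signalling, went the other way on chromosome 7. It fell from 162, 147 and 141 CPM in controls to 92.4, 94.3 and 98.3 CPM with decitabine and 97.1, 98.5 and 101 CPM with the combination. The differences were -0.66 (SE 0.07, adjusted p = 1.2e-06) and -0.60 (SE 0.07, adjusted p = 3.1e-06). GRB10 was the lower gene that kept its call with decitabine when libraries were scaled by their size alone.

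In the neighbouring KCNQ1 cluster the changes were small and in both directions. KCNQ1OT1 (ENSG00000269821), the paternally expressed antisense RNA that starts at the control region inside KCNQ1, had 3.90, 4.47 and 5.69 CPM in controls, 8.09, 5.71 and 7.20 CPM with decitabine and 4.69, 6.0 and 5.65 CPM with the combination. It was called higher with decitabine (0.58, SE 0.18, adjusted p = 0.01) but the combination value of 0.22 was not called (adjusted p = 0.3). That decitabine call was lost without control replicate 1 or decitabine replicate 1. KCNQ1 itself, a potassium channel subunit, had counts of 1, 0 and 2 in controls, 2, 5 and 3 with decitabine and 1, 0 and 2 with the combination, too few to test. KCNQ1OT1 lies within KCNQ1 on the opposite strand, and whether strand was used in counting is not given in the sources used here.

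The 3 protein-coding genes on the far side of that control region did not move together. PHLDA2, which restrains placental growth, rose from 120, 118 and 115 CPM to 151, 164 and 173 CPM with decitabine and to 205, 191 and 171 CPM with the combination. The differences were 0.47 (SE 0.08, adjusted p = 0.00011) and 0.68 (SE 0.08, adjusted p = 3.2e-06), and no treated library overlapped the controls. SLC22A18, a transporter-like membrane protein beside PHLDA2, had 17.0, 16.0 and 12.5 CPM in controls, 12.2, 11.1 and 9.95 CPM with decitabine and 8.93, 8.57 and 7.11 CPM with the combination. It was called lower in both (-0.46, SE 0.14, adjusted p = 0.008, and -0.89, SE 0.14, adjusted p = 5.6e-05), though scaling by library size alone removed the decitabine call. CDKN1C, the cyclin-dependent kinase inhibitor p57, had 0.993, 1.75 and 1.33 CPM in controls, 0.888, 1.31 and 1.19 CPM with decitabine and 1.35, 1.41 and 1.24 CPM with the combination. These 3 groups of CDKN1C overlapped, and neither difference was called (-0.27, SE 0.27, adjusted p = 0.39, and -0.03, SE 0.27, adjusted p = 0.93).

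The DLK1-MEG3 cluster on chromosome 14 was silent or nearly so in the control cells and had counts for genes of both parental kinds after treatment. MEG3 (ENSG00000214548, chr14:100779410-100861031), a maternally expressed long non-coding RNA with growth-suppressing activity, had no counts in any control library. It had 575.5, 537.1 and 857.0 counts with decitabine (24.3, 22.7 and 36.3 CPM) and 371.2, 492.0 and 644.1 counts with the combination (16.2, 21.6 and 27.4 CPM). A count of 0 in the 3 controls, with 3 counts over the group taken as the limit, allows up to 0.0497 CPM. On that limit MEG3 was at least 559-fold higher with decitabine and at least 439-fold higher with the combination (adjusted p = 1.1e-05 and 1.6e-05). The limit covers counting error only. MEG8 (ENSG00000225746), a maternal long non-coding RNA further along the cluster, went from 0.104, 0.216 and 0.0494 CPM in controls to 1.17, 0.661 and 1.03 CPM with decitabine and 0.352, 0.663 and 1.32 CPM with the combination. No treated library overlapped the controls, and the differences were 2.99 (SE 0.60, adjusted p = 0.00047) and 2.69 (SE 0.62, adjusted p = 0.0014).

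The counts assigned to the paternal genes of the same cluster were also higher, at lower levels. RTL1 (chr14:100879753-100903722, minus strand) overlaps MEG8 (chr14:100894770-101038859, plus strand), so reads from the shared stretch cannot be assigned with certainty. RTL1, a retrotransposon-derived gene needed for the placental vessels, had 0.149, 0.45 and 0.987 CPM in controls, 1.44, 2.62 and 3.77 CPM with decitabine and 1.26, 1.89 and 3.11 CPM with the combination. Its differences were 2.29 (SE 0.57, adjusted p = 0.0046) and 1.97 (SE 0.58, adjusted p = 0.012), without overlap with the controls. DLK1, a membrane ligand of the Notch family, had no counts in controls, 3, 3 and 7 counts with decitabine and 6, 4 and 10 counts with the combination. DLK1 did not pass the expression filter. Against the limit of 3 counts it was at least 3.69-fold and 5.82-fold higher, and without the filter the adjusted p values were 0.0016 and 8.5e-05. That fit gave IGF2 an adjusted p of 1.7e-87 with decitabine, against 1.7e-08 with the filter. Its p values are therefore not comparable with those of the tested genes. The genes of the 14q32 cluster that were not among the 37 are described further on.

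The 15q11-q13 cluster, whose paternal genes are lost in Prader-Willi syndrome, split into a gene that appeared and genes that were lower. NDN (ENSG00000182636, chr15:23685400-23687305), which encodes the MAGE-family growth suppressor necdin, had no counts in controls, 19, 11 and 16 counts with decitabine and 14, 6 and 11 counts with the combination. It was at least 13-fold higher with decitabine and at least 9.02-fold higher with the combination (adjusted p = 4.5e-05 and 0.00017). MAGEL2, the MAGE-family neighbour of NDN, had 1 count in all, in control replicate 3. SNRPN (ENSG00000128739, chr15:24823637-24978723), which encodes a spliceosomal protein and starts at the control region, had 56.7, 59.1 and 52.5 CPM in controls, 44, 44.3 and 38.6 CPM with decitabine and 49.1, 41.7 and 36.6 CPM with the combination. No treated library of SNRPN reached the control levels, and the differences were -0.41 (SE 0.10, adjusted p = 0.0025) and -0.40 (SE 0.10, adjusted p = 0.0028).

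MKRN3, a RING finger protein of the same cluster that delays puberty, had 9.09, 9.31 and 10.5 CPM in controls, 7.91, 8.10 and 6.78 CPM with decitabine and 6.50, 7.52 and 7.54 CPM with the combination. It was called lower in both comparisons (-0.34, SE 0.13, adjusted p = 0.027, and -0.42, SE 0.13, adjusted p = 0.0091). The decitabine call of MKRN3 was lost with DESeq2 and without control replicate 3 or decitabine replicate 3. The calls of SNRPN and MKRN3 were lost in both comparisons when libraries were scaled by size alone. SNURF, the reading frame at the head of the SNRPN transcript, overlapped between all groups at 0.992 ± 0.329 CPM in controls and 0.972 ± 0.252 CPM with decitabine. SNURF and SNRPN share exons, so the split of reads between them is uncertain.

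PEG3, on chromosome 19, was the gene of its cluster with counts in every library. It encodes a zinc finger protein expressed from the paternal allele (ENSG00000198300, chr19:56810077-56840728). Its level was 0.695, 1.35 and 1.58 CPM in controls, 8.71, 7.94 and 8.30 CPM with decitabine and 8.27, 7.30 and 8.26 CPM with the combination. The 2 treated groups overlapped each other and not the controls, and the differences from the controls were 2.78 (SE 0.21, adjusted p = 4.5e-08) and 2.71 (SE 0.21, adjusted p = 5.8e-08). ZIM2, which shares its early exons with PEG3, had no counts in controls and at most 2 counts in any treated library. USP29, a deubiquitinase gene that starts further along the chromosome, had no counts in controls and at most 1 count in each treated library.

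NNAT (ENSG00000053438, chr20:37521206-37523690) encodes neuronatin, a small membrane proteolipid of brain and endocrine cells, and sits in an intron of BLCAP. It had no counts in controls, 71, 50 and 72 counts with decitabine and 109, 111 and 87 counts with the combination. All treated libraries of NNAT were above the limit of detection, and every combination library was above every decitabine library. It was at least 54.7-fold higher than in controls with decitabine and at least 89.3-fold higher with the combination (adjusted p = 8.8e-08 and 2.3e-08). Its host gene BLCAP, which encodes a small membrane protein linked to apoptosis, rose from 135, 131 and 128 CPM to 201, 220 and 237 CPM with decitabine and to 208, 221 and 210 CPM with the combination. The differences for BLCAP were 0.74 (SE 0.07, adjusted p = 6.4e-07) and 0.69 (SE 0.07, adjusted p = 1.2e-06). The 2 genes overlap on opposite strands, so reads from the shared stretch cannot be assigned with certainty.

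PLAGL1 (ENSG00000118495, chr6:143940300-144064599), a zinc finger transcription factor that arrests the cell cycle, rose on chromosome 6. It had 6.01, 6.60 and 5.92 CPM in controls, 16.5, 15.7 and 18.3 CPM with decitabine and 10.4, 12.7 and 15.6 CPM with the combination. The differences were 1.45 (SE 0.14, adjusted p = 6.3e-07) and 1.06 (SE 0.14, adjusted p = 1.5e-05), and the treated libraries were all above the controls. HYMAI, the non-coding RNA that starts at the same control region, had 1, 0 and 0 counts in controls, 4, 0 and 1 with decitabine and 1, 2 and 1 with the combination.

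On 7q21.3 the genes next to the control region were lower or not called, and a homeobox gene further away was higher. PEG10, a retrotransposon-derived gene that promotes growth and is highly expressed in prostate cancers of neuroendocrine type, had 248, 271 and 301 CPM in controls, 237, 220 and 167 CPM with decitabine and 186, 208 and 178 CPM with the combination. PEG10 was called lower in both (-0.39, SE 0.12, adjusted p = 0.01, and -0.52, SE 0.12, adjusted p = 0.0018), and scaling by library size alone removed the decitabine call. SGCE, the epsilon-sarcoglycan gene that is read from the same promoter region in the opposite direction, had 43.6, 43.3 and 40.9 CPM in controls, 39.2, 39.8 and 36.5 CPM with decitabine and 34.5, 34.9 and 35.6 CPM with the combination. The SGCE groups did not overlap, but the decitabine difference of -0.15 was not called (SE 0.07, adjusted p = 0.087) and the combination difference of -0.28 was (SE 0.07, adjusted p = 0.0031), though not under scaling by library size alone, where the decitabine value turned to 0.10. PPP1R9A, which encodes the actin-binding protein neurabin, overlapped between treated and control libraries at 11.4 ± 1.79 CPM in controls, 13.1 ± 1.15 CPM with decitabine and 11.7 ± 0.689 CPM with the combination. DLX5 (ENSG00000105880, chr7:97020396-97024950), a homeobox factor of bone and craniofacial development whose imprinting is disputed, had 0.248, 0.951 and 0.543 CPM in controls, 2.03, 2.02 and 2.71 CPM with decitabine and 3.09, 3.92 and 3.37 CPM with the combination. Its 3 groups did not overlap, and it was higher by 1.95 with decitabine (SE 0.33, adjusted p = 0.00011) and by 2.56 with the combination (SE 0.32, adjusted p = 6.8e-06).

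Among the tested genes that lie alone, DIRAS3, FAM50B and IGF2R rose and GRB10 fell. DIRAS3 (ENSG00000162595, chr1:68045886-68051717) is a growth-inhibiting RAS-family GTPase expressed from the paternal allele. It had 0.199, 0.15 and 0.148 CPM in controls, 1.73, 2.32 and 3.73 CPM with decitabine and 4.14, 4.58 and 5.11 CPM with the combination. The 3 groups of DIRAS3 did not overlap, and the differences from controls were 3.92 (SE 0.39, adjusted p = 6.5e-07) and 4.75 (SE 0.37, adjusted p = 5.9e-08). FAM50B (ENSG00000145945, chr6:3849373-3851320) is a paternally expressed retrocopy of the X-linked gene FAM50A. It had 2.43, 2.55 and 1.88 CPM in controls, 15.9, 16.5 and 12.9 CPM with decitabine and 21.6, 15.7 and 13.6 CPM with the combination. Its differences were 2.72 (SE 0.20, adjusted p = 4e-08) and 2.89 (SE 0.20, adjusted p = 2.2e-08). NAP1L5, a further retrocopy, in an intron of HERC3, had no counts in controls, 7, 7 and 4 counts with decitabine and 8, 13 and 5 with the combination. It did not pass the filter, and it was at least 5.11-fold and 7.57-fold higher on the limit of 3 counts. When no filter was used its adjusted p values were 0.00013 and 4.4e-06, which, as for DLK1, are not comparable with those of the tested genes.

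GNAS, L3MBTL1, ZDBF2 and INPP5F, which lie alone, and MEST had no called change against the controls. GNAS, which encodes the stimulatory G protein alpha subunit and several imprinted alternative transcripts, had 844 ± 42.4 CPM in controls, 921 ± 46.4 CPM with decitabine and 896 ± 36.1 CPM with the combination (0.13, SE 0.07, adjusted p = 0.14, and 0.09, SE 0.07, adjusted p = 0.3). Gene-level counts merge its transcripts, of which only some are imprinted. MEST, a hydrolase-family gene expressed from the paternal allele in development, had 27.5 ± 1.25, 28.1 ± 1.57 and 26.1 ± 2.05 CPM in the 3 groups. L3MBTL1, a chromatin reader, had 7.31 ± 1.89, 6.55 ± 0.610 and 6.83 ± 0.966 CPM. ZDBF2, a zinc finger gene, had 26.0 ± 3.63 CPM in controls, 27.5 ± 1.36 CPM with decitabine and 21.1 ± 4.20 CPM with the combination, and INPP5F, a phosphoinositide phosphatase, had 37.8 ± 3.83, 40.6 ± 2.62 and 33.2 ± 2.78 CPM. Under scaling by library size alone MEST, GNAS, INPP5F and PPP1R9A were called higher with decitabine.

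**Figure D2:**
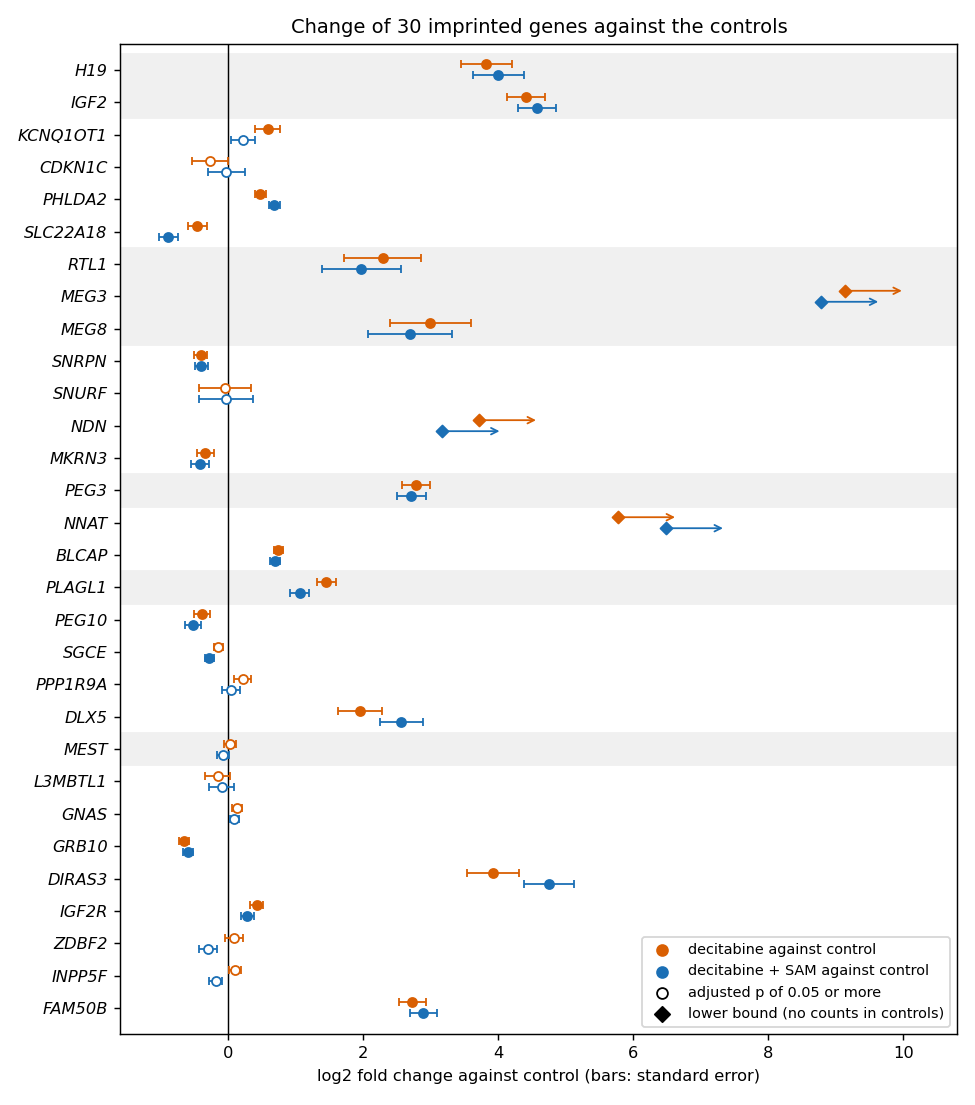
Log2 fold change against control of the 30 tested imprinted genes, ordered by cluster, with bars of 1 standard error, for decitabine and for decitabine with SAM. Filled circles had an adjusted p under 0.05, open circles did not, and diamonds with arrows are lower bounds for genes with no counts in the controls. MEG3, NNAT, NDN, IGF2, H19 and DIRAS3 lie furthest to the right, and the genes called lower lie between -0.89 and -0.28.

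With SAM added to decitabine, the shares of imprinted genes called against decitabine alone were near those of all genes. Of the 30 genes, 2 (6.67%) were called higher in the combination, 2 (6.67%) lower and 26 were not called. Among all genes 15.7% were called, 7.67% higher and 8.02% lower. No imprinted gene was called with a difference of over 1, against 0.399% of all genes upward and 1.74% downward. Over the 37 genes, every combination library lay above every decitabine library for 3 and below for 6, and 28 overlapped, while 17.2% of all genes lay above and 16.8% below. The median difference was -0.07 for the imprinted genes and 0.00 for all genes.

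The 2 genes called higher were DIRAS3 (0.83, SE 0.24, adjusted p = 0.031) and NNAT (0.71, SE 0.21, adjusted p = 0.041), both of which had risen with decitabine. The 2 called lower were SLC22A18 (-0.43, SE 0.14, adjusted p = 0.049) and INPP5F (-0.29, SE 0.09, adjusted p = 0.049). The INPP5F libraries read 42.1, 42.1 and 37.6 CPM with decitabine and 30.2, 33.5 and 35.7 CPM with the combination, and the controls overlapped both at 33.6, 38.5 and 41.2 CPM. Each of the 4 calls was lost when decitabine replicate 1 or 2 or combination replicate 1 or 2 was left out, so that they rest on those libraries. Leaving out control replicate 2 also removed SLC22A18 and INPP5F, leaving out control replicate 1 removed SLC22A18, and leaving out combination replicate 3 removed SLC22A18 and DIRAS3. SLC22A18 and INPP5F were not called by voom and limma, and NNAT alone was called in a fit of the 6 libraries of the 2 groups. Groups that did not overlap without being called were DLX5, higher at 0.62 (SE 0.26, adjusted p = 0.12), and PLAGL1, ZDBF2, SGCE and PPP1R9A, lower at -0.38, -0.38, -0.14 and -0.16. MEG3, IGF2, H19, PEG3 and FAM50B, all higher than in the controls, differed between the treatments by -0.35 (SE 0.25), 0.16 (SE 0.19), 0.18 (SE 0.31), -0.06 (SE 0.17) and 0.17 (SE 0.16), none of them called.

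**Figure D3:**
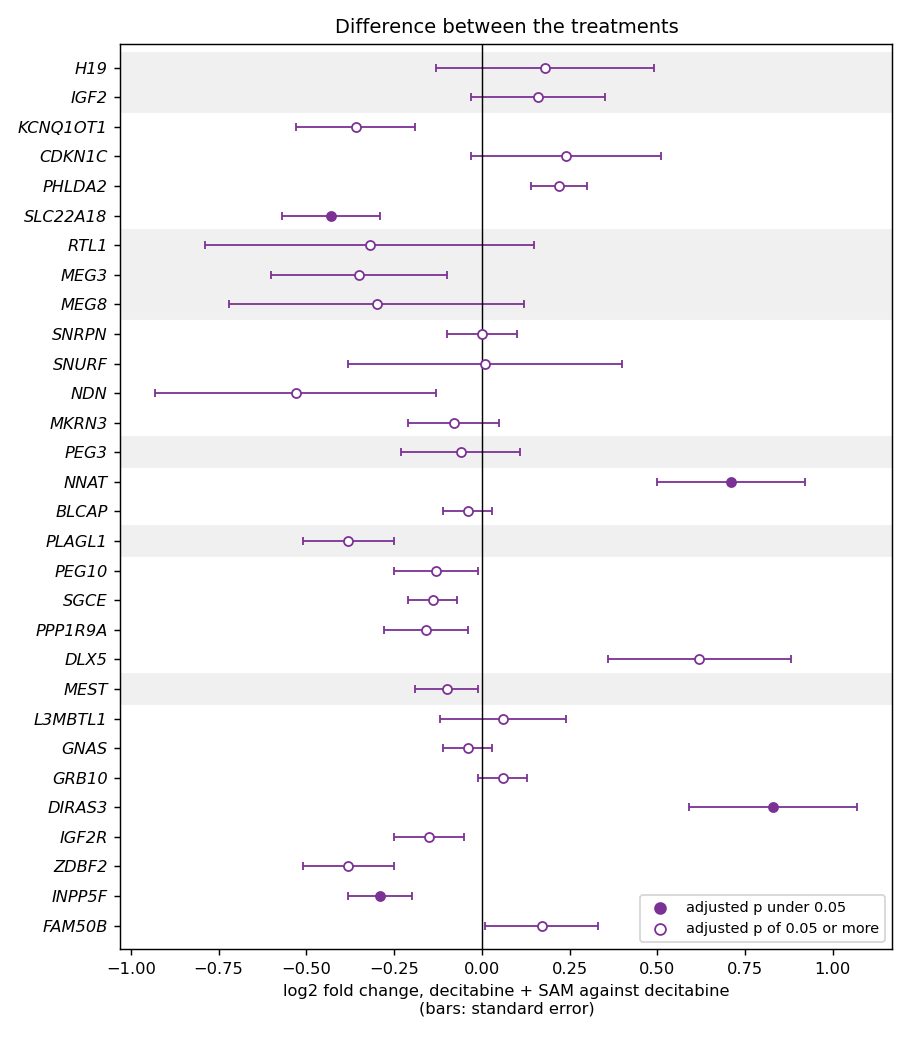
Log2 fold change of decitabine with SAM against decitabine alone for the 30 tested imprinted genes, with bars of 1 standard error. Filled circles are the 4 genes with an adjusted p under 0.05, NNAT and DIRAS3 to the right of 0 and SLC22A18 and INPP5F to the left, and all values lie between -0.53 and 0.83.

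Of 22 genes that establish, copy, guard or remove the methylation of imprints, 19 were tested. With decitabine 5 of them (26.3%) were higher and 12 (63.2%) lower, against 36.3% and 32.5% of all genes, with a median of -0.57. With the combination 3 (15.8%) were higher and 11 (57.9%) lower, against 35.9% and 31.3% of all genes, with a median of -0.45. DNMT1 had 404 ± 32.7 CPM in controls, 230 ± 30.4 CPM with decitabine and 237 ± 15.4 CPM with the combination (-0.81, adjusted p = 4e-06, and -0.77, adjusted p = 7.2e-06). UHRF1, which brings DNMT1 to newly copied DNA, had 152 ± 21, 86.8 ± 2.78 and 128 ± 13.8 CPM. It was lower in both comparisons (-0.81, adjusted p = 7.8e-06, and -0.25, adjusted p = 0.039) and higher in the combination than in decitabine alone (0.55, SE 0.10, adjusted p = 0.0039). TET1, which oxidises methylated cytosine, was lower by -2.19 and -2.24 (adjusted p = 6.5e-07 and 6e-07). ATRX, a chromatin remodeller, was lower by -1.13 and -1.08 (adjusted p = 1.3e-06 and 1.9e-06), and TRIM28, the corepressor that ZFP57 recruits, by -1.0 and -0.97 (adjusted p = 4.1e-08 and 5.7e-08). ZFP57 itself had no counts in controls and 0.479 ± 0.106 and 0.782 ± 0.126 CPM in the treated groups, at least 9.64-fold and 15.7-fold higher.

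A further 43 imprinted genes that are not among the 37 served as a comparison, of which 42 were in the files and 22 were tested. With decitabine 9 (40.9%) were called higher and 6 (27.3%) lower, near the 36.3% and 32.5% of all genes, and with the combination 11 (50%) were higher and 6 (27.3%) lower, against 35.9% and 31.3%. Of the 22, 6 passed the filter only through the treated libraries, so these counts are no result about imprinted genes. ZNF597, an imprinted zinc finger gene on chromosome 16, had no counts in controls and 2.41 ± 0.308 and 2.17 ± 0.132 CPM in the treated groups, at least 48.5-fold and 43.6-fold higher. CMKLR2-AS, an antisense RNA beside ZDBF2, had 1 count over the 3 controls and 244 counts with decitabine, a ratio of 208 with a 95% counting interval from 36.9 to 8230. On 14q32, DIO3, the deiodinase that inactivates thyroid hormone, went from 0.298 ± 0.172 CPM to 5.48 ± 3.03 and 5.09 ± 1.59 CPM (4.18, SE 0.58, adjusted p = 0.00013, and 4.07, SE 0.58, adjusted p = 0.00017). MEG9, a maternal non-coding RNA of that cluster, was higher by 3.36 and 2.46 (adjusted p = 0.00015 and 0.0041). With MEG3, MEG8 and RTL1, 5 imprinted genes of 14q32 were tested and called higher in both treatments, but all 5 passed the filter only through the treated libraries and so had to be higher.

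Genes that start within 500 kb of the 37 genes were compared as neighbours that are not listed as imprinted. Of 729 in the files, 153 were tested. With decitabine 59 of the 153 (38.6%) were higher and 43 (28.1%) were lower, against 36.3% and 32.5% of all genes. By over 1 on the log2 scale 31 (20.3%) were called higher and 13 lower, against 22.7% and 6.15% of all genes. Around the DLK1-MEG3 cluster 1 of 7 tested neighbours was higher and 2 were lower. Near IGF2 and H19, 3 of 6 were higher and 2 lower, among them MRPL23, a mitochondrial ribosomal protein gene next to H19, which went from 57.5 ± 4.63 to 20.1 ± 0.703 CPM and was chosen after its values were seen. Around NNAT and BLCAP 1 of 8 was higher and 3 were lower. Around PEG3, ZIM2 and USP29 24 of 41 were higher and 2 were lower. That stretch holds many zinc finger genes, among them ZNF582, which had no counts in controls and was at least 35.2-fold higher, and the pseudogene ZNF542P, which went from 3.1 to 966.7 counts over the group, a ratio of 268 with a 95% counting interval from 93.6 to 1330. Around PEG10, SGCE, PPP1R9A and DLX5 4 of 8 were higher and 0 lower. The collagen gene COL1A2, nearest to PEG10, was higher and went from 0.614 ± 0.322 to 45.7 ± 8.04 CPM. The other higher genes were PON1 and PON3, nearest to PPP1R9A, and DLX6-AS1, nearest to DLX5. No test compared the clusters with their neighbours.

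**Figure D4:**
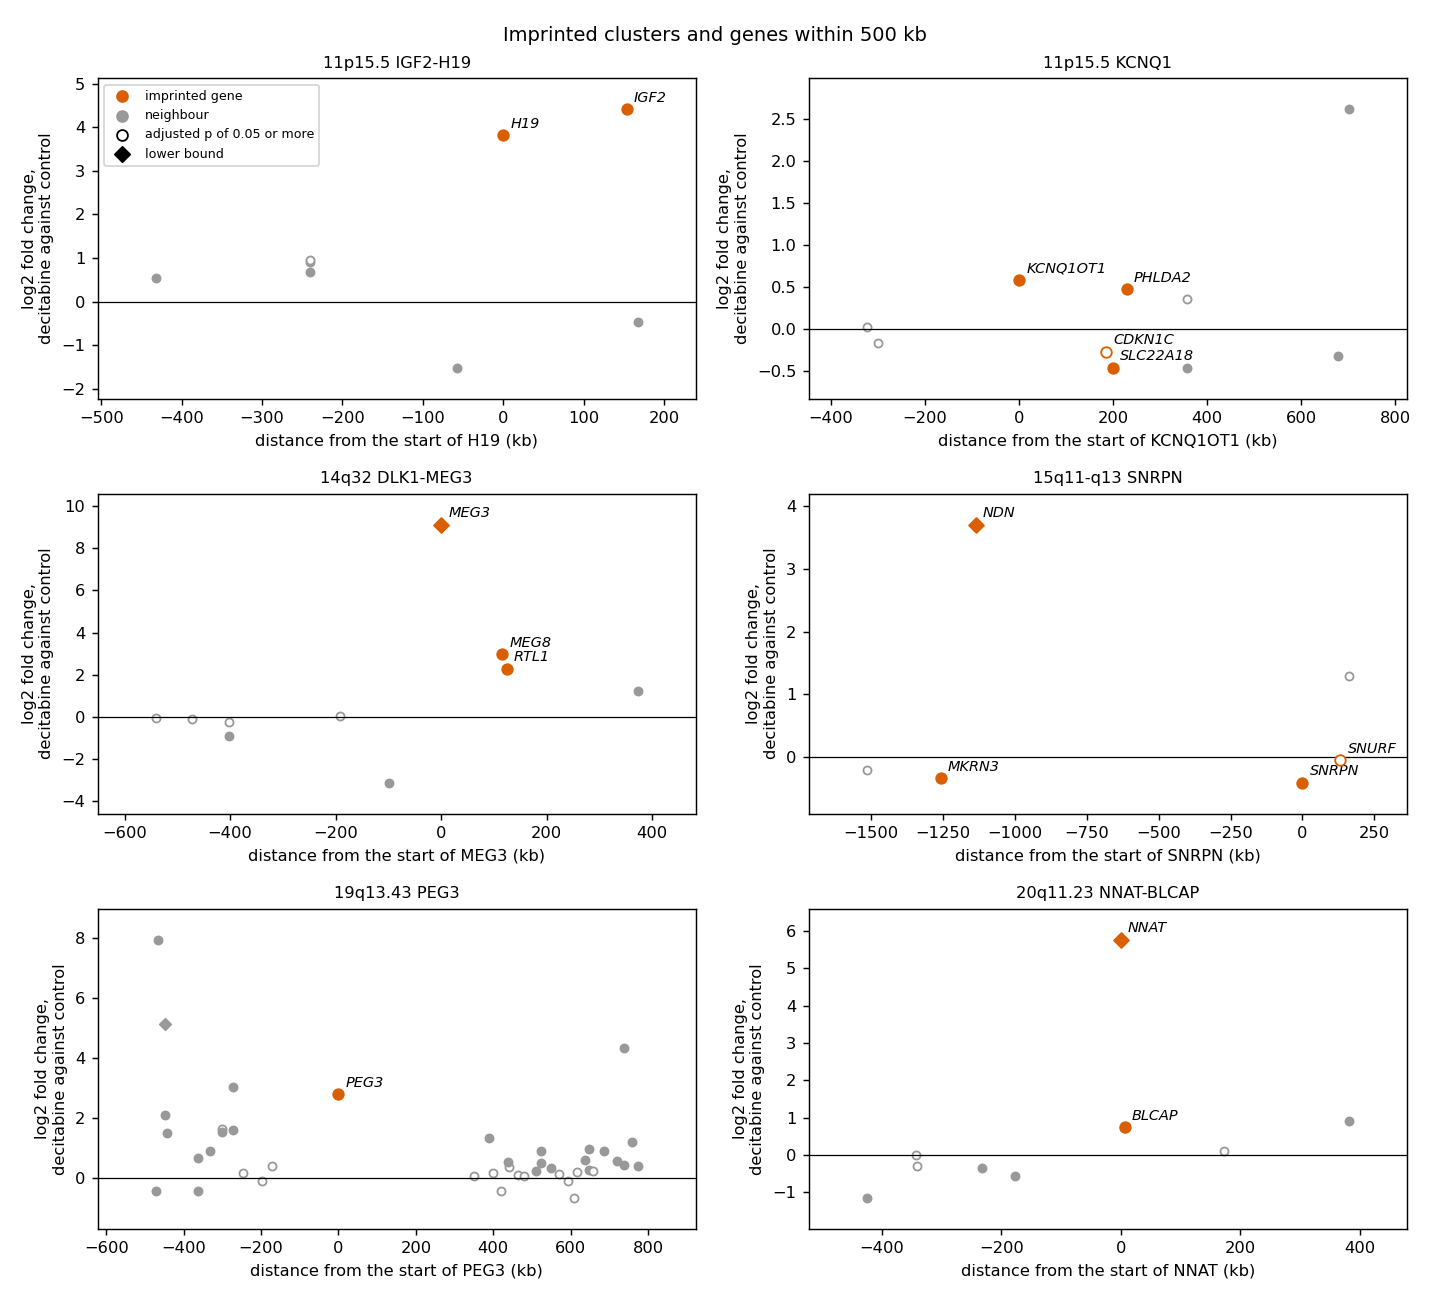
Log2 fold change of decitabine against control for imprinted genes and tested neighbours in 6 clusters, against the distance in kb between gene starts and that of a reference gene of the cluster. Open points had an adjusted p of 0.05 or more and diamonds are lower bounds. MEG3, MEG8 and RTL1 stand above their neighbours on 14q32 and NNAT above those on 20q11.23. These 4 genes passed the filter only through the treated libraries and so had to be higher. Around PEG3 many neighbours lie above 0 as well.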

How the data were processed

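RNA-seq libraries made with the BGISEQ-500 protocol were processed by the authors with Trim Galore 0.6.4 and kallisto 0.4.6, per the submitters' notes, and the estimated counts per Ensembl gene were deposited. The strand setting is not given in the sources used here. The deposited log2 CPM tables were not used. Counts were rounded and fitted in edgeR 4.0.16 (R 4.3.3) with TMM scaling, filterByExpr and a robust quasi-likelihood fit of 1 mean per group over all 9 libraries. Of 60617 identifiers, 60357 matched GENCODE release 44, used for names and positions. On simulated counts with 200 changed genes, decitabine against control, 94.1% were recovered and 5.88% of calls were false, over 5 draws of 15839 to 15886 tested genes. Alternatives were DESeq2 1.42.0, voom with limma 3.58.1 (the test the study's methods name), other scalings and filters, a replicate term and leaving out each library. Members, lists and tests were chosen with earlier results of these data known. All 37 genes are named; values per library are given for genes called by over 1 on the log2 scale, for clusters and for counted genes under the filter, with at most 4 called genes of each other list by size, DNMT1 and UHRF1. Same-group libraries differed by 6.4 to 26.1 chi-square units per degree of freedom, so none was a copy.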

Additional observations from a re-analysis of the deposited data

How the results depend on the processing

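The directions and calls of the 12 imprinted genes called higher than in controls by over 1 on the log2 scale held in every alternative in which they were tested. The counts of imprinted genes called higher against the controls stayed within 1.5 times of the reported ones in all alternatives, and leaving out 1 library gave 15 to 16 higher and 4 to 5 lower with decitabine, and 14 to 15 higher and 6 to 8 lower with the combination. Scaling by library size alone moved the median of all genes to 0.28 (decitabine, reported 0.03) and 0.27 (combination, reported 0.05), and upward calls from 52.7% to 70.3% and from 53.4% to 69.3% of calls. Imprinted genes called lower then numbered 1 with decitabine and 3 with the combination, and of all genes 3746 and 3857 were called lower. Asking for a change of over 1 left 0 imprinted genes lower against the controls and 0 in either direction between the treatments, with 4208 and 1139 of all genes for decitabine, 3962 and 1216 for the combination and 74 and 323 between the treatments.

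Between the treatments, leaving out 1 library gave 0 to 3 imprinted genes higher and 0 to 3 lower, and 381 to 2066 and 480 to 1997 of all genes; the lowest counts came without decitabine replicate 1 or 2 or combination replicate 1 or 2, and the cause was not tested beyond the smaller number of samples. The fit of 6 libraries gave 1 higher and 0 lower, voom 0 lower and the fit without a filter 4 lower. Samples with the same replicate number correlated between -0.0165 and 0.233 in their deviations from the group means. Samples with different numbers correlated between -0.22 and 0.0579. The 2 highest values joined decitabine and combination replicate 1 (0.233) and replicate 3 (0.229). The labels do not say whether samples that share a replicate number were handled together. With that number as a replicate block, 4 imprinted genes were lower between the treatments, MEG3 and PLAGL1 in addition, and no call against the controls changed. Of all genes, 1766 were then higher and 1890 lower between the treatments, where the reported fit gave 1421 and 1487.

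Differences that turned sign were not called in the reported fit or in the fit where they turned. MEST with decitabine was called higher under library size alone, and INPP5F with the combination was called lower without control replicate 1 or combination replicate 3. With decitabine under library size alone SGCE stood at 0.10, SNURF at 0.19 and L3MBTL1 at 0.08, and MEST at -0.01 without a filter. For the combination against controls under library size alone CDKN1C stood at 0.19, MEST at 0.14, SNURF at 0.18, L3MBTL1 at 0.12 and INPP5F at 0.03, and CDKN1C at 0.00 with voom. Between the treatments SNRPN stood at -0.02 under library size alone and -0.00 with DESeq2, its size factors or voom, and SNURF at -0.01, -0.09 and -0.03 under library size alone, voom and the replicate block. Leaving out 1 library moved decitabine values between -0.02 and 0.07 for MEST, -0.30 and 0.17 for SNURF and -0.36 and 0.01 for L3MBTL1, and combination values between -0.22 and 0.18 for CDKN1C, -0.08 and 0.14 for PPP1R9A, -0.53 and 0.28 for SNURF and -0.30 and 0.07 for L3MBTL1. The difference between the treatments then ranged from -0.05 to 0.41 for H19, -0.06 to 0.28 for IGF2, -0.72 to 0.04 for RTL1, -0.92 to 0.05 for MEG8, -0.12 to 0.10 for SNRPN, -0.47 to 0.33 for SNURF, -0.10 to 0.02 for BLCAP, -0.05 to 0.15 for L3MBTL1 and -0.05 to 0.31 for FAM50B.

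Genes such as KCNQ1, ZIM2, USP29, MAGEL2 and HYMAI had too few counts at this depth to show a difference. With about 3 counts over a group as the limit, an absent gene and one below 0.0497 CPM cannot be told apart. Gene-level counts do not separate alleles, promoters or overlapping transcripts. Alternatives in which a gene failed the filter gave no value for it.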
